A study of Saccharomyces cerevisiae with 6 samples.

Results

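Pericentromeric clusters were taken from 3 lists of binding clusters made by ChIP-chip in *Saccharomyces cerevisiae*. In ChIP-chip the DNA bound to a tagged protein is recovered with an antibody and read on a tiling microarray, and a cluster is a stretch of DNA with significant enrichment. The lists are those of Thp1-FLAG and Sac3-FLAG in cells wild type for TREX-2, and of the helicase Rrm3-FLAG in *sac3Δ* cells. A cluster was taken as pericentromeric when it overlapped the 20 kb on either side of a centromere. The rule found 703 of the 11869 clusters in all, with 132 of 2485 for Thp1, 149 of 2282 for Sac3 and 422 of 7102 for Rrm3. The 16 windows made up 5.30% of the span of the chromosomes, and they held 5.31% of the Thp1 clusters, 6.53% of the Sac3 clusters and 5.94% of the Rrm3 clusters.

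The strains were MATa with the marker alleles can1-100, ade2-1, trp1-1, his3-11,15 and a leu2 allele, and were grown asynchronously in rich medium at 30°C. The tagged TREX-2 strains carried THP1::FLAG::KanMX or SAC3::FLAG::KanMX together with ura3-1. The Rrm3 strain carried Rrm3::FLAG, bar1Δ, sac3::KanMX and ura3::URA3/GPD-Tk(7x). It therefore differs from both other strains in more than SAC3, and no Rrm3 list of wild-type cells was analysed here. Thp1 and Sac3 come from 1 experiment each, and the Rrm3 list was taken to combine 2 repetitions, so that no spread between replicates is known and no comparison below carries a test. The number of arrays limits the precision.

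A budding yeast centromere is a short DNA element wrapped in a specialized nucleosome and bound by the kinetochore, which attaches the chromosome to the spindle. This tight protein–DNA complex slows replication forks, and Rrm3 is a helicase that helps forks to pass such complexes. Thp1 and Sac3 are subunits of TREX-2, the complex that links transcribed genes to mRNA export at the nuclear pore. Sac3 is the scaffold of TREX-2 and also holds Cdc31, the yeast centrin, a protein of the spindle pole body, near which centromeres are gathered in the nucleus.

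The lists name no genome build. Centromere positions are those of the R64 assembly, 1 base per centromere. To see whether the lists fit R64, they were set beside R64 genes. Sac3 clusters covered on average 64.5% of the length of the 132 ribosomal protein genes in place, 26.9% with the genes moved 500 bp to the left and 31.9% with the genes moved 500 bp to the right. For tRNA genes, the Rrm3 coverage was 79.1% in place against 50.8 and 49.5% after the same moves. On 12 of the 14 chromosomes with at least 3 ribosomal protein genes the Sac3 coverage was highest within 50 bp of the R64 positions, and the others were chromosomes VI, with 100 bp, and IV, with 250 bp. The genes on either side of all 16 positions carried left-arm and right-arm names as they should, in 32 of 32 cases. That count sets the positions beside the R64 gene table and cannot tell the build of the lists. The best-fitting shifts give the order of the uncertainty of the distances below. Results that a move of 500 bp changes are given as such.

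The lists of significant clusters differed at the centromeres themselves. Sac3 clusters covered 6 of the 16 centromere positions (37.5%, 95% Wilson interval 18.5 to 61.4%), and with the cluster of chromosome X, which starts 43 bp to the right, they lay at 7. Thp1 clusters covered 0 of 16 (interval 0 to 19.4%). The paper reports Thp1 peaks below significance at the centromeres where it found Sac3, which a list of clusters cannot show. Rrm3 clusters in *sac3Δ* cells covered 15 of 16 (93.8%, interval 71.7 to 98.9%), and that of chromosome XVI started 10 bp to the right of the position. In the rest of the chromosomes the clusters covered 11.1% of the bases for Sac3, 11.3% for Thp1 and 43.0% for Rrm3, which is the share of covered positions to set beside these counts. The intervals cover counting error only. With the positions moved 500 bp to the right the counts were 0 for Sac3, 0 for Thp1 and 9 for Rrm3, and moved 500 bp to the left 4, 2 and 12.

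The Sac3 clusters at centromeres mostly lay across the position. On chromosome IV the cluster ran from 449679 to 449836 (start and end as in the list, build not named), that is from 32 bp left to 125 bp right of the centromere position. This cluster of 157 bp is shorter than the shift of 250 bp that fitted best on chromosome IV, so that its place over the centromere is less certain than that of the others. On chromosome XIII it ran from 267989 to 268277, 42 bp left to 246 bp right. On chromosome XI it ran from 439865 to 440375, 264 bp left to 246 bp right. These clusters ended within 250 bp to the right of the position. On chromosome XIV the cluster ran from 628434 to 628968, 324 bp left to 210 bp right. On chromosome X it ran from 436350 to 436553 and lay 43 to 246 bp to the right. None of these 5 clusters touched a Thp1 cluster.

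The other 2 Sac3 clusters at centromeres extended over a neighboring gene on the left arm and did touch Thp1 clusters. On chromosome VI the Sac3 cluster ran from 147619 to 148654, 891 bp left to 144 bp right. On chromosome VIII it ran from 104271 to 105890, 1315 bp left to 304 bp right. In these regions Thp1 clusters stopped short of the centromere, with their ends 186 bp to its left on chromosome VI (148121 to 148324) and 135 bp to its left on chromosome VIII (104746 to 105451). Thus Sac3 clusters reached the centromere position and Thp1 clusters over the same genes ended 135 to 186 bp short of it. Both distances are under the 300 bp given as the resolution of the array. These 2 regions alone therefore do not separate the proteins.

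**Figure D1:**
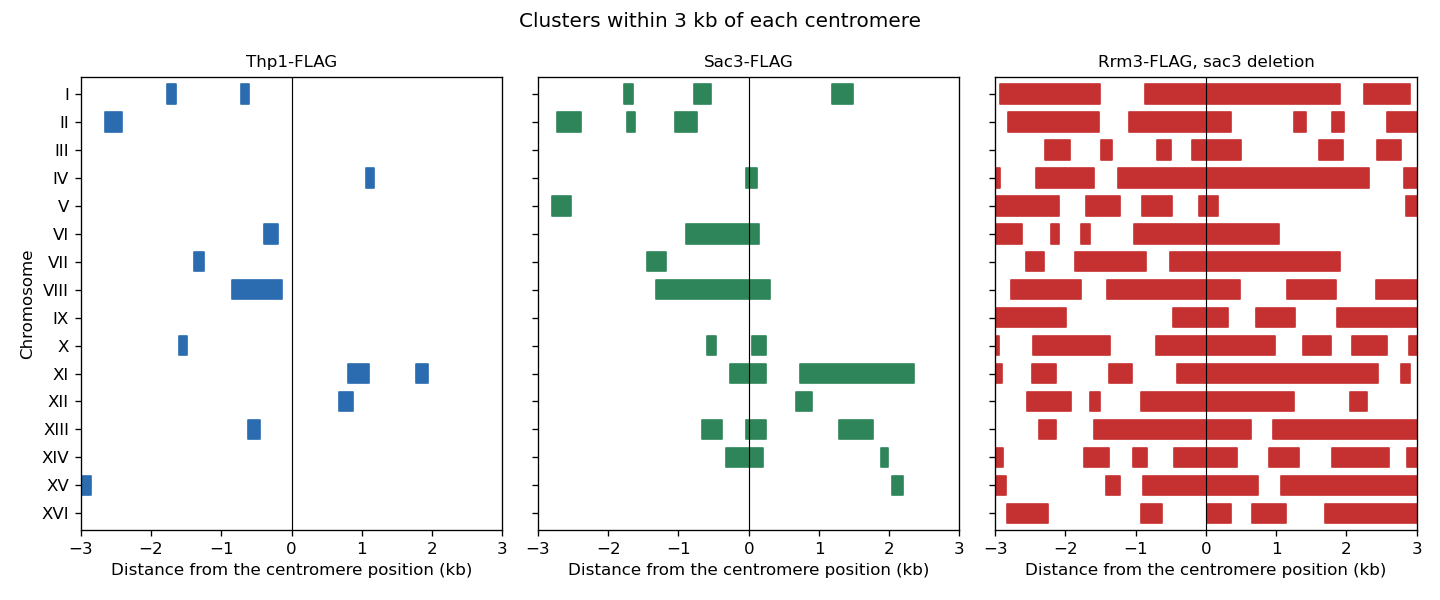
Clusters of Thp1, Sac3 and Rrm3 within 3 kb of the 16 centromeres. Each bar is a cluster, rows are chromosomes and the x axis gives the distance from the centromere position in kb. Thp1 bars cross the vertical line at 0 of 16 positions, Sac3 bars at 6 and Rrm3 bars at 15.

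The nearest Thp1 cluster lay between 135 bp (chromosome VIII) and 5833 bp (chromosome XVI) from the centromere, with a median of 1370 bp over the 16 chromosomes. For Sac3 the median distance was 602.5 bp and the largest 5366 bp, on chromosome III. For Rrm3 the largest distance was the 10 bp of chromosome XVI. Within 500 bp of the centromere there was a Thp1 cluster at 3 centromeres, a Sac3 cluster at 7 and an Rrm3 cluster at 16. Of all 1-kb bins, which have the length of such a span, 29.5% were touched by Thp1, 28% by Sac3 and 84% by Rrm3. The distances separate Rrm3, which lay at each centromere, from Sac3, which lay either at the centromere or more than 500 bp away.

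All 16 centromeres lay in a stretch free of Thp1 clusters, of 4451 to 22965 bp with a median of 8691.5 bp. A fixed point falls more often into long stretches than into short ones. For a point drawn from all stretches without Thp1 the mean length is 10407 bp, and 4 of the 16 stretches at centromeres, those of chromosomes III, V, XII and XVI, were longer than this. At the 10 centromere positions that no Sac3 cluster covered, that of chromosome X among them, the Sac3-free stretch ran from 513 bp on chromosome X to 17634 bp with a median of 7589 bp, against a mean of 11447 bp for a point drawn in the same way. A few long stretches can raise such a mean, and the median for drawn points was not computed. The stretches at centromeres therefore cannot be called short or long from these values. The longest Thp1-free stretch at a centromere was that of chromosome XVI, and the longest Sac3-free one that of chromosome XII.

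Rrm3 clusters at the centromeres measured 269 to 3567 bp with a median of 1789.5 bp, including that of chromosome XVI. The median of pericentromeric Rrm3 clusters was 539.5 bp, but clusters found at a fixed point tend to be long for the reason just given. The longest lay at the centromere of chromosome IV, from 448465 to 452032, and the shortest at that of chromosome V, from 151895 to 152164. On the median they extended 790.5 bp to the left and 692.5 bp to the right. Of the 16, 7 touched a Thp1 cluster. The Sac3 clusters at centromeres measured 157 to 1619 bp with a median of 510 bp, a range that overlaps that of Rrm3. The median of pericentromeric Sac3 clusters was 251 bp, and the same limit holds for this comparison. At each of the 7 centromeres with a Sac3 cluster the Rrm3 cluster was the longer.

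Coverage by distance was set beside that of the rest of the chromosomes. Coverage is the share of bases inside clusters, summed over the 16 chromosomes and both arms. In the first 1 kb on either side it was 17.0% for Sac3, 4.95% for Thp1 and 73.5% for Rrm3. From 1 to 2 kb it was 8.62, 2.35 and 48.9%. Both TREX-2 subunits were lowest from 2 to 3 kb, with 3.43% for Sac3 and 1.18% for Thp1. Sac3 coverage was thus highest in the step at the centromere and fell over the next 2, whereas Thp1 coverage was low in all 3. The next highest Sac3 step, from 14 to 15 kb, had 15.0%. With clusters of at least 300 bp alone, the first 1 kb had 12.2% for Sac3 and 2.20% for Thp1, and Sac3 clusters covered 4 centromeres in place of 6.

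Thp1 coverage stayed below the 11.3% of the rest in each of the first 9 steps of 1 kb and in 15 of the 20 steps. It was 4.05% within 5 kb (interval 1.73 to 7.94%), 9.01% from 5 to 10 kb and 11.3% from 10 to 20 kb. The interval counts 1-kb bins as independent units, which neighboring bins are not, so it is no test of a difference from the rest. Sac3 coverage lay below the 11.1% of the rest in 7 of the first 9 steps and in 13 of 20, with 9.82% within 5 kb, 9.69% from 5 to 10 kb and 11.6% from 10 to 20 kb. Sac3 exceeded Thp1 by 12.1 percentage points in the first 1 kb, by 6.28 points from 1 to 2 kb, by 2.25 points from 2 to 3 kb, by 4.44 points from 3 to 4 kb and by 3.83 points from 4 to 5 kb. Beyond 5 kb the difference ran from -2.31 to 2.22 points. The difference was thus largest in the first 2 kb, and that from 2 to 3 kb was about the size of the largest one beyond 5 kb.

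Rrm3 coverage was above the 43.0% of the rest in 17 of the 20 steps, and lowest, at 41.1%, from 17 to 18 kb. Within 2 kb it was 61.2%, from 5 to 10 kb 48.8% and from 10 to 20 kb 46.9%. Outside the windows it was 42.8% from 20 to 40 kb, 41.3% from 40 to 60 kb and 42.1% from 60 to 80 kb. The excess of Rrm3 coverage was therefore seen inside the 20 kb, and most of all in the first 1 kb. Gene content changed over the same distances, since coding genes took up 46.8% of the first 1 kb, 75.3% from 1 to 2 kb, 71.7% of the windows and 72.9% of the rest in R64. Its part in the coverage was not tested.

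**Figure D2:**
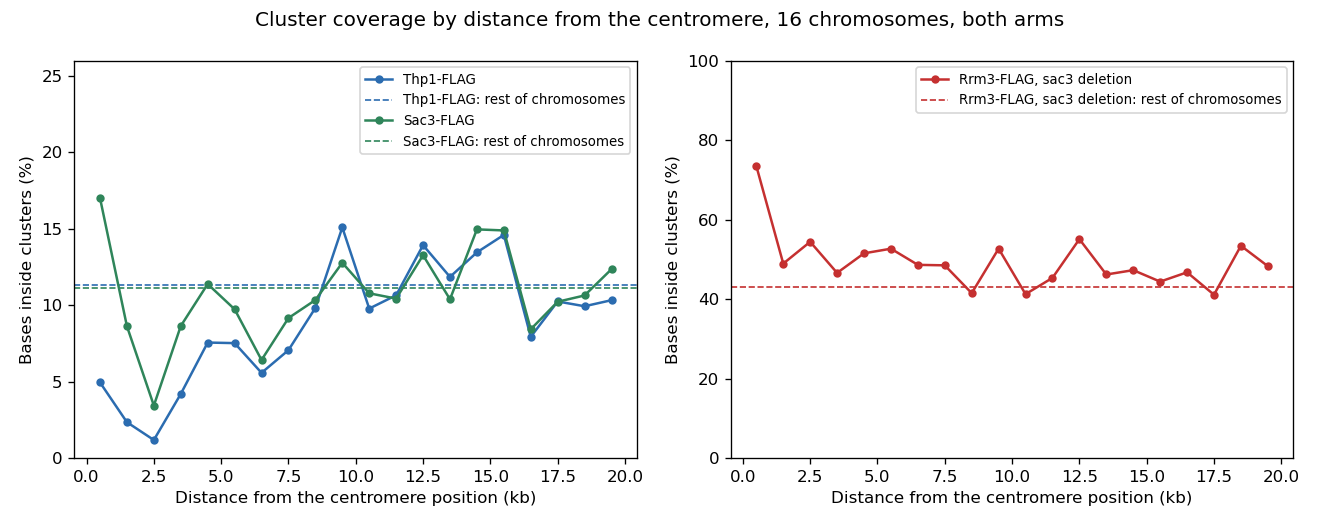
Share of bases inside clusters in 1-kb steps of distance from the centromere, over 16 chromosomes and both arms (y axis in percent, x axis in kb). Dashed lines give the coverage of the rest of the chromosomes. Sac3 starts at 17.0%, Thp1 at 4.95% and Rrm3 at 73.5%, and both TREX-2 subunits are lowest from 2 to 3 kb.

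In bins of 1 kb, the 32 bins next to the centromeres were touched by a Thp1 cluster in 6 cases, a Sac3 cluster in 17 and an Rrm3 cluster in 32. Of all 1-kb bins of the chromosomes, 29.5% were touched by Thp1, 28% by Sac3 and 84% by Rrm3 clusters. From 2 to 3 kb, 2 of 32 bins were touched by Thp1, 4 by Sac3 and 30 by Rrm3. For Thp1 18.8% of the nearest bins were touched, below its background, and for Sac3 53.1%, above its background. These shares rest on 32 bins, carry no interval and were not tested.

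Few chromosomes made up much of the signal near the centromere. Within 1 kb, Sac3 covered 65.2% on chromosome VIII, 51.8% on VI, 38.8% on XI, 28.6% on XIII, 26.7% on XIV and 16.6% on X, whereas 6 chromosomes had 0. For Thp1 chromosome VIII had 35.3% and 10 chromosomes had 0. Without chromosome VIII the coverage within 1 kb was 13.8% for Sac3 and 2.93% for Thp1, and without chromosome VI it was 14.7% for Sac3, values no higher than the 15.0% of the step from 14 to 15 kb over all chromosomes. Rrm3 covered between 34.6% (chromosome V) and 100% (chromosomes IV and VI) within 1 kb. An Rrm3 cluster lay within 1 kb of every centromere, and a Sac3 cluster within 1 kb of 10 of them. Of all 1-kb bins 84% were touched by Rrm3 and 28% by Sac3. The share for spans of 2 kb, which cannot be lower, was not computed.

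Over the whole windows the differences were smaller. Thp1 clusters covered 8.90% of the windows against 11.3% of the rest, a difference of -2.44 percentage points. Sac3 clusters covered 10.7% against 11.1%, a difference of -0.45 points. Rrm3 clusters covered 49.4% against 43.0%, a difference of 6.43 points. Thp1 coverage was below the rest on 12 of the 16 chromosomes, Sac3 coverage on 10 and Rrm3 coverage on 4. The Thp1 difference shrank to -0.97 points without clusters of 5 kb or longer and to -1.06 points with the 20 kb at chromosome ends left out of the rest, and under these choices the Sac3 difference turned to 1.16 and 0.90 points. The Sac3 windows as a whole therefore cannot be called higher or lower than the rest.

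The windows varied more among themselves than these differences. For Thp1 they ran from 3.26% on chromosome XIV to 24.0% on chromosome I, with a median of 6.33%. For Sac3 they ran from 3.75% on chromosome IV to 26.8% on chromosome I, with a median of 7.21%. For Rrm3 they ran from 37.9% on chromosome XII to 64.9% on chromosome I, with a median of 48.0%. The windows of chromosomes I, II and VI were the 3 highest for Thp1 and Sac3 alike. They hold the 3 longest pericentromeric clusters of both lists, given below with their limit. Of the rest, 271 adjoining tiles of 40 kb, the size of a window, had medians of 8.42% for Thp1, 8.33% for Sac3 and 41.4% for Rrm3, and quartiles of 5.11 to 11.8%, 4.89 to 11.6% and 37.3 to 46.4%. Below these medians lay 9 of the 16 windows for Thp1, 9 for Sac3 and 2 for Rrm3.

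**Figure D3:**
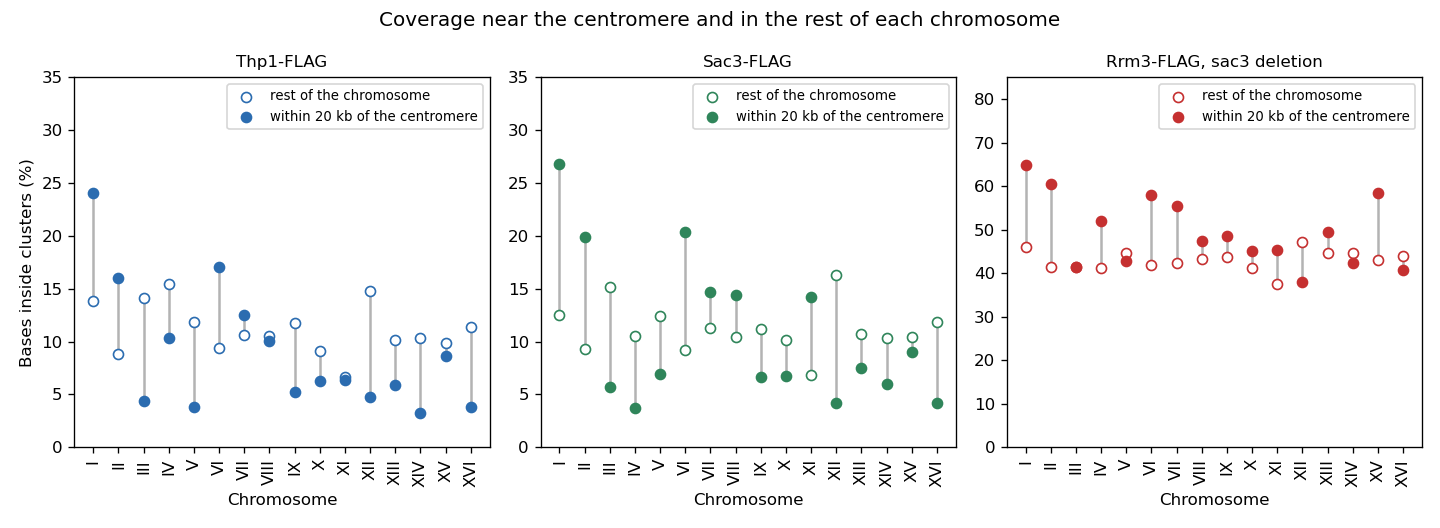
Share of bases inside clusters within 20 kb of the centromere (filled points) and in the rest of the same chromosome (open points), in percent, for the 16 chromosomes. The filled point is the lower on 12 chromosomes for Thp1, on 10 for Sac3 and on 4 for Rrm3.

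Chromosome arms did not carry equal shares. In the left 20 kb Thp1 covered 10.7% and Sac3 12.7%, against 7.11 and 8.71% in the right 20 kb. Thp1 coverage was higher on the left on 11 chromosomes and Sac3 coverage on 10. For Rrm3 the values were 49.1 and 49.7%. Of the 4 longest clusters of Thp1 and Sac3, given below, 3 lay on the left.

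The pericentromeric clusters came at a density of 20.6 per 100 kb for Thp1, against 20.6 in the rest, 23.3 against 18.7 for Sac3 and 65.9 against 58.4 for Rrm3. With clusters of at least 300 bp alone, the Sac3 difference in density of 4.62 per 100 kb fell to 0.26. The mean size of pericentromeric clusters was 442 ± 819 bp (SD across clusters) for Thp1, against 550 ± 1118 bp in the rest, and the medians were 235.5 and 267 bp. For Sac3 the means were 472 ± 802 and 596 ± 1177 bp and the medians 251 and 281 bp. Under 300 bp, the stated resolution of the array, were 66.7% of pericentromeric Thp1 clusters and 62.4% of Sac3 clusters, against 57.8 and 54.5% in the rest. For Rrm3 the means were 765 ± 784 and 734 ± 1037 bp, the medians 539.5 and 451 bp, and the shares under 300 bp 24.9 and 31.0%. Pericentromeric Thp1 and Sac3 clusters were thus shorter and Rrm3 clusters slightly longer than elsewhere, each by less than the SD across clusters. For clusters of at least 300 bp the Rrm3 difference in mean size turned from 30.6 to -21.4 bp.

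Thp1 and Sac3 shared most but not all of their pericentromeric clusters. Of the 132 Thp1 clusters, 115 touched a Sac3 cluster by at least 1 bp (87.1%, 95% Wilson interval 80.3 to 91.8%), against 78.1% in the rest. Of the 149 Sac3 clusters, 109 touched a Thp1 cluster (73.2%, interval 65.5 to 79.6%), against 85.1% in the rest. Among the 13 Sac3 clusters that reached within 1 kb of a centromere 6 touched a Thp1 cluster (46.2%, interval 23.2 to 70.9%), and of the other 136 pericentromeric ones 103 (75.7%, interval 67.9 to 82.2%). Counted in bases, 87.0% of the Thp1 and 72.4% of the Sac3 signal in the windows was common to both, against 84.0 and 85.5% in the rest. When the overlap had to make up at least 50% of each cluster, the Sac3 share was 59.1% against 73.7% in the rest and the Thp1 share 66.7% against 66.9%. The share of Sac3 clusters that Thp1 touched was thus lower in the windows under both rules, and the higher Thp1 share was seen under the first rule alone.

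Rrm3 clusters in *sac3Δ* cells touched 131 of the 132 pericentromeric Thp1 clusters and 149 of the 149 Sac3 clusters. In the rest, 98.4% of Thp1 and 99.7% of Sac3 clusters were touched, so the windows have little room to differ. In the other direction, 119 of the 422 pericentromeric Rrm3 clusters touched a Thp1 cluster (28.2%, against 28.7% in the rest) and 136 a Sac3 cluster (32.2%, against 26.3%).

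**Figure D4:**
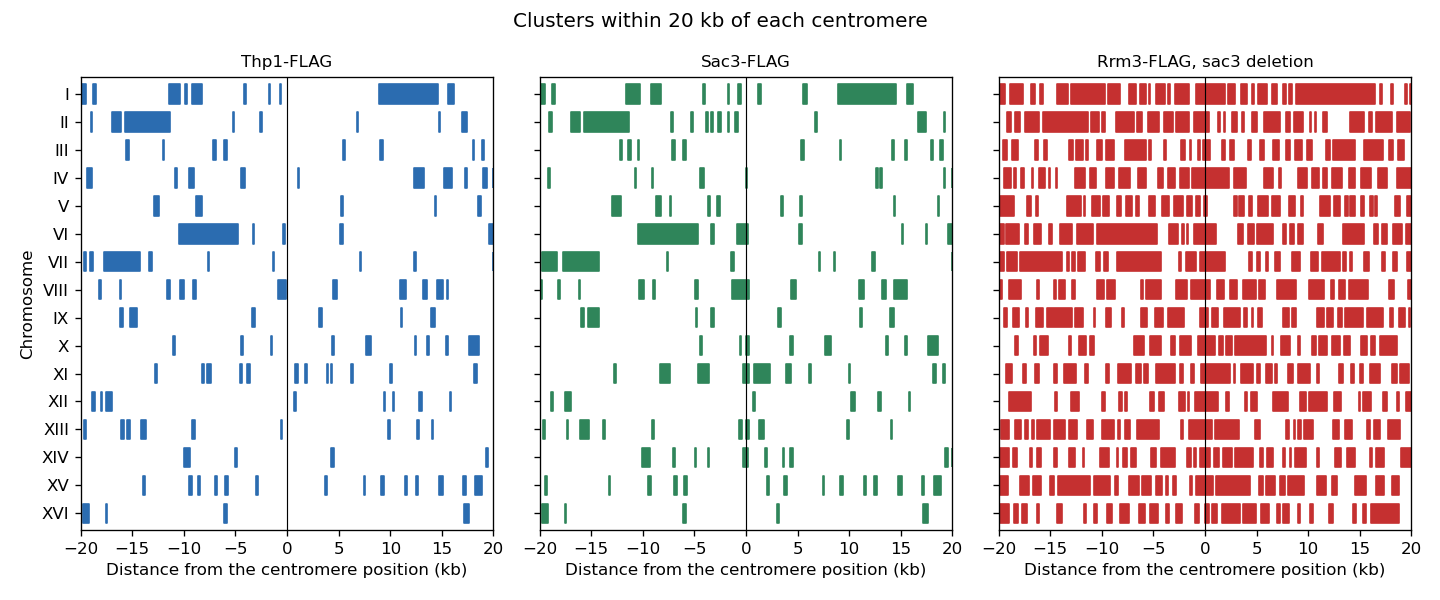
Pericentromeric clusters of Thp1, Sac3 and Rrm3. Each bar is a cluster, rows are the 16 chromosomes and the x axis gives the distance from the centromere position in kb, from 20 kb left to 20 kb right. Long bars of Thp1 and Sac3 lie on chromosomes I, II, VI and VII, and Rrm3 bars cover 49.4% of the windows.

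The longest pericentromeric clusters were the same regions in the Thp1 and Sac3 lists. The longest lay left of the centromere of chromosome VI, from 138069 to 143799 for Thp1 and from 138063 to 143819 for Sac3, over the genes YFL002W-A and YFL002W-B. The second lay right of the centromere of chromosome I, with 5696 bp for Thp1 and 5684 bp for Sac3, over YAR009C and YAR010C. The third lay on chromosome II, with 4337 and 4372 bp, over YBL005W-B. The fourth lay on chromosome VII, with 3431 and 3479 bp, over PMA1, which encodes the proton pump of the plasma membrane. Together these 4 regions accounted for 32.9% of the summed length of pericentromeric clusters for Thp1 and for 27.4% for Sac3. Whether the probes in these regions also match other places in the genome was not tested. Their signal may therefore not all be local.

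Below these regions the order differed between the lists. The fifth for Thp1 lay over SSA1, an Hsp70 chaperone gene on chromosome I, with 1109 bp. The fifth for Sac3 was the cluster of 1619 bp that joins the ribosomal protein gene RPL14B to the centromere of chromosome VIII. For Rrm3, the longest were those on chromosomes I (7603 bp), VI (5817 bp) and II (4421 bp), a region of chromosome VII over COG7 and RPN14 (4270 bp), where COG7 acts in Golgi traffic and RPN14 in proteasome assembly, and that over PMA1 (4043 bp). The region over COG7 and RPN14, at -8493 to -4223 bp from the centromere, was among the 5 longest for Rrm3 and not for Thp1 or Sac3.

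Next to the centromeres lie 32 genes in R64, 1 on each side. Sac3 clusters touched 15 of them, Thp1 clusters 8 and Rrm3 clusters 32. Over all 6002 protein-coding genes, 31.9% were touched by Sac3, 33.8% by Thp1 and 86.1% by Rrm3. Of the 32 genes, 7 were touched by Sac3 and Thp1, 8 by Sac3 alone and 1, NTH1 on chromosome IV, by Thp1 alone. The same split over all protein-coding genes was not computed. NTH1 encodes a trehalase, and 4.79% of its length was in a Thp1 cluster. Among the genes with their 3′ end toward the centromere, Sac3 touched 9 of 19 and Thp1 6 of 19, and among those with their 5′ end toward it, 6 of 13 and 2 of 13.

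RPL14B, which encodes a protein of the large ribosomal subunit, lies left of the centromere of chromosome VIII. Its length was covered to 100% by Sac3, to 42.3% by Thp1 and to 100% by Rrm3 clusters. VPS1, a dynamin-like GTPase of vacuolar sorting on chromosome XI, was covered to 76.5% by Sac3, 22.2% by Thp1 and 93.2% by Rrm3. DEG1, a pseudouridine synthase on chromosome VI, was covered to 63.2, 15.3 and 73.0%, in the same order. YPT7, a Rab GTPase of vacuole fusion on chromosome XIII, was covered to 45.3, 26.3 and 100%. At these 4 genes Thp1 covered less of the gene than Sac3, and Rrm3 at least as much as Sac3.

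ECM15, left of the centromere of chromosome II, was covered to 97.5% by Sac3 and to 0 by Thp1. CDC5, the polo kinase of mitotic exit on chromosome XIII, was covered to 23.0% by Sac3 and 0 by Thp1. NUP60, a nucleoporin of the nuclear basket on chromosome I, was covered to 18.5% by Sac3 and 0 by Thp1, and PRE3, a proteasome subunit on chromosome X, to 16.9 and 0. DOM34, which rescues stalled ribosomes, and CIT1, the mitochondrial citrate synthase, flank the centromere of chromosome XIV and were covered by Sac3 to 15.7 and 7.29%. MNN1, a mannosyltransferase on chromosome V, and RRP6, a nuclease of the nuclear exosome on chromosome XV, were covered by Sac3 to 6.99 and 6.95%. These 8 genes had Sac3 without Thp1.

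TFC3, which encodes a subunit of the RNA polymerase III factor TFIIIC, was covered to 6.88% by Thp1 and 10.6% by Sac3 on chromosome I. ERG26, a sterol enzyme gene on chromosome VII, was covered to 12.7 and 25.7%, and YLR001C on chromosome XII to 7.53 and 8.61%. The other 16 genes next to centromeres were touched by neither Thp1 nor Sac3 and all by Rrm3, from 0.317% of YCR001W on chromosome III to 100% of EFM5, a methyltransferase gene on chromosome VII. The median share of the 32 genes inside Rrm3 clusters was 63.8%.

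**Figure D5:**
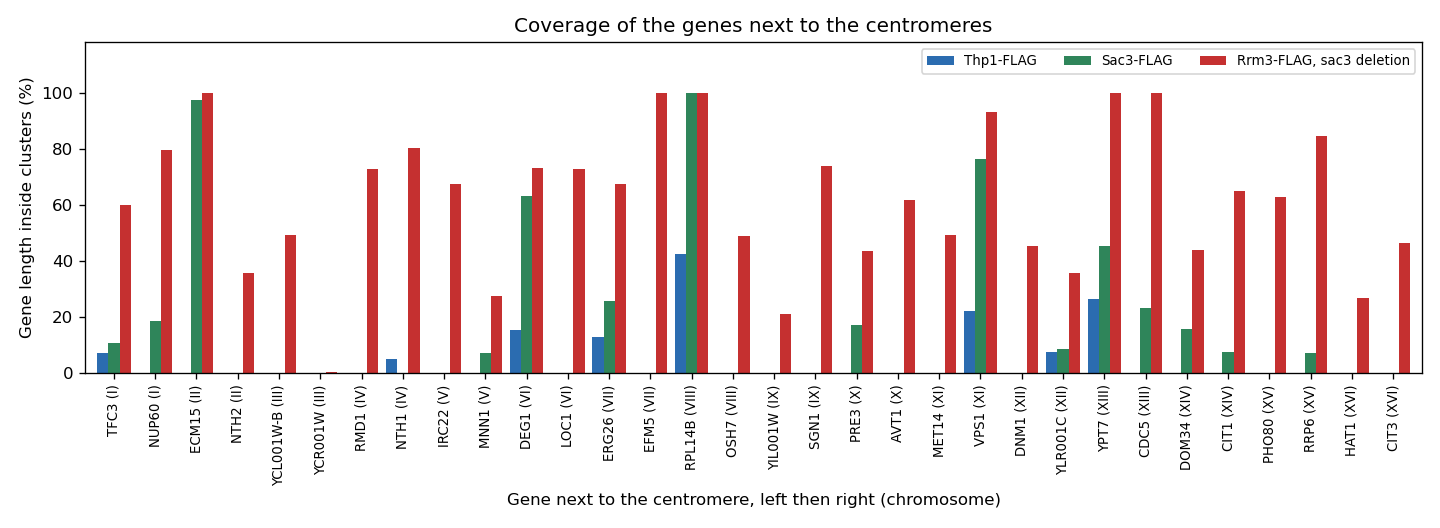
Share of the length of each of the 32 genes next to the centromeres inside clusters (bars from 0, in percent), for Thp1, Sac3 and Rrm3, with the chromosome in parentheses. Sac3 bars are above 0 for 15 genes, Thp1 bars for 8 and Rrm3 bars for 32, and RPL14B reaches 100% for Sac3 and 42.3% for Thp1.

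Among the 344 protein-coding genes in the windows, Thp1 clusters touched 105 (30.5%, interval 25.9 to 35.6%), Sac3 clusters 120 (34.9%, interval 30.0 to 40.1%) and Rrm3 clusters 309 (89.8%, interval 86.2 to 92.6%). In the rest the shares were 34.0, 31.7 and 85.9%. The windows held 94 genes touched by Thp1 and Sac3, 11 by Thp1 alone and 26 by Sac3 alone. This split was not computed for the rest, so it cannot be called particular to the windows. Rrm3 clusters touched 131 of these 131 genes, and 178 of the 213 genes with neither. For genes the shares were thus near those of the rest. With at least 50% of a gene covered, the numbers were 21 for Thp1, 27 for Sac3 and 159 for Rrm3.

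Genes of 2 classes taken as highly transcribed were counted in the windows, which held 344 of all 6002 protein-coding genes. Expression was not measured here, and other highly transcribed genes were not counted. Of the ribosomal protein genes 2 of 132 lay there, RPL14B and its copy RPL14A, 7.41 kb from the centromere of chromosome XI, and both were touched in all 3 lists. Over all ribosomal protein genes 82.6% were touched by Thp1, 92.4% by Sac3 and 98.5% by Rrm3. RPL14A was covered to 63.2% by Thp1 and to 100% by Sac3. The copies are near-identical, and probes that match both cannot tell them apart. Of 13 glycolysis and fermentation genes, TDH2, a glyceraldehyde-3-phosphate dehydrogenase gene on chromosome X, lay in a window, and was covered to 72.6% by Thp1, 71.5% by Sac3 and 100% by Rrm3. Over the 13 genes, 100% were touched by Thp1, 92.3% by Sac3 and 100% by Rrm3.

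Genes for tRNAs, transcribed by RNA polymerase III and known as sites where forks pause without Rrm3, were denser near centromeres, with 4.06 per 100 kb in the windows against 2.18 in the rest of R64. Rrm3 clusters touched 20 of the 26 tRNA genes in the windows (76.9%, interval 57.9 to 89.0%), against 82.5% of all tRNA genes. Thp1 touched 1 of 26 (all, 10.5%), SUF2 on chromosome III with 80.6% of its length, and Sac3 touched 1 of 26 (all, 11.6%), YNCK0016W on chromosome XI with 3.51%. The tRNA genes nearest to a centromere, SUF10 at 3.09 kb and YNCN0017W at 3.84 kb on chromosome XIV, were each covered to 100% by Rrm3 and to 0 by Thp1 and Sac3. Of the 20 tRNA genes with Rrm3, 18 had neither Thp1 nor Sac3. The same share over all tRNA genes was not computed. Since Thp1 and Sac3 touched 10.5 and 11.6% of all tRNA genes, this count cannot be called particular to the windows.

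Of 4 genes for small nuclear and nucleolar RNAs in the windows, Thp1 touched 2 (all such genes, 18.3%), Sac3 1 (all, 28%) and Rrm3 2 (all, 81.7%). The small nucleolar RNA gene SNR18 on chromosome I, which lies in an intron of the elongation factor gene EFB1, was covered to 100% in all 3 lists. SNR43 on chromosome III was covered to 3.35% by Thp1, 0 by Sac3 and 100% by Rrm3. The spliceosomal RNA gene SNR14 on chromosome V and SNR87 on chromosome XI were covered to 0 in all 3 lists.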

How the data were processed

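The authors hybridized immunoprecipitated (IP) and supernatant (SUP) DNA to Affymetrix tiling arrays and processed the IP/SUP signal with the Tiling Array Suite. A cluster needed a positive signal under their P-value limit of 0.01 along 100 bp or more, with gaps of at most 250 bp. Rrm3 arrays (2 repetitions) were quantile normalized. The software version and the genome build are not given in the sources used here. Each deposited line holds a chromosome and the first and last position of a cluster in bp, with no signal. From its title, the Rrm3 list belongs to *sac3Δ*. The other 2 of the 6 samples (Rrm3 in *thp1Δ*) were not analysed here.

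Chromosome length was taken as the last position of any cluster, and lengths summed to 12069093 bp. Distances are from R64 centromere positions, and genes are from the RefSeq R64 table. A gene was touched at 1 bp or more in common. The members and gene lists were chosen with earlier results of these data known. The rule for named genes took those next to each centromere, those under the 5 longest clusters of each list, tRNA genes by count, and ribosomal protein and glycolytic genes. Small nuclear and nucleolar RNA genes were added after their values were seen. Where a share carries an interval, it is a 95% Wilson interval. No test was run, since there was 1 list per protein. The functions were tested on simulated lists. The work used Python 3.11.15, numpy 2.4.6, pandas 2.3.3, scipy 1.17.1 and matplotlib 3.10.9. Alternatives were windows of 10 kb, clusters of at least 300 bp or under 5 kb, chromosome ends left out of the rest, chromosomes left out, positions moved by 500 bp and an overlap of at least 50%.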

Additional observations from a re-analysis of the deposited data

Results flagged for a closer look

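Within 20 kb of centromeres, coverage minus that of the rest was -2.44 percentage points for Thp1 and 6.43 points for Rrm3 in *sac3Δ* cells, in opposite directions. Within 1 kb of the centromere, coverage minus that of the rest was -6.39 points for Thp1 and 5.87 points for Sac3, again in opposite directions. For the coverage within 1 kb the Wilson interval was 1.73 to 20.1% for Thp1 and 6.86 to 31.8% for Sac3. With 1-kb bins counted as units, both intervals included the coverage of the rest. With 1 list each these differences between the proteins were not tested.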

How the results depend on the processing

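Of 313 recomputed values, 282 kept their direction and stayed close to the reported value (for coverages and shares within the 95% Wilson interval, with 1-kb bins counted as units for coverage; for counts, densities and sizes within 1.5 times), 23 moved and 8 reversed. With windows of 10 kb the Thp1 difference in coverage was -4.81 points, the difference in Thp1 clusters per 100 kb -1.57 (reported 0.0372) and 100% of Thp1 clusters touched Rrm3. With clusters of at least 300 bp the coverage differences were -2.79 points for Thp1 and -1.23 for Sac3, the density differences -1.82 for Thp1 and 0.26 per 100 kb for Sac3, the differences in mean size -95.7 for Thp1, -137 for Sac3 and -21.4 bp for Rrm3 (reported 30.6), those in median size -28.5 bp for Thp1 and for Sac3, and the shares 79.5% of Thp1 clusters with Sac3 and 62.5% of Sac3 clusters with Thp1. The Sac3 coverage difference reversed to 1.16 points without clusters of 5 kb or longer, to 0.90 points without the 20 kb at chromosome ends, to 0.50 without chromosome XII and to 0.0404 without chromosome XVI. Without clusters of 5 kb or longer Rrm3 coverage was below the rest on 1 chromosome. With positions moved 500 bp left, Thp1 covered 2 centromeres and its density difference was -0.13 per 100 kb, and moved 500 bp right Sac3 covered 0 and Rrm3 9 centromeres, so these counts need the R64 positions to hold. Within 500 bp of a centromere Thp1 had 3. Under an overlap of at least 50% of each cluster the shares were 66.7% (Thp1 with Sac3), 59.1% (Sac3 with Thp1), 21.2% (Thp1 with Rrm3) and 20.1% (Sac3 with Rrm3). With at least 50% of the gene covered, genes numbered 21, 27 and 159 for Thp1, Sac3 and Rrm3. Leaving out chromosomes other than IV, the coverage within 1 kb and the 50-bp limit at centromeres were chosen after seeing the data. No paired analysis was possible because each protein had a single list, and so no repetition could be left out.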
